A study of Mus musculus with 2 samples.

Results

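The MYC, MAX and MXD network is a set of 10 genes whose proteins share a helix-loop-helix and leucine zipper domain and compete for a common partner, MAX. The members are the activators Mycn, Mycl and Myc, the partner Max, and the MAX-binding antagonists Mxd1, Mxi1, Mxd3, Mxd4, Mnt and Mga. They were chosen by name, as the rows whose gene identifier carries one of these names in GENCODE M21, and all 10 were found among 43346 mouse genes in the deposited tables. They were measured in total RNA of forebrain from B6NCrl mouse embryos at embryonic day 11.5, in 1 group of 2 libraries. Replicate 1 was made from a pool of 109 embryos and replicate 2 from a separate pool of 88 embryos, with both sexes mixed in each. Input was 10 ng of RNA above 200 nucleotides with spike-in RNAs, taken through a SMART-seq protocol. With no second age, tissue, genotype or treatment, the data give the level of each member, the make-up of its transcripts and the spread between the pools, and no test between groups exists.

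MYC proteins bind DNA at E-box sequences only as pairs with MAX, and there raise transcription of genes for ribosome assembly, metabolism and cell division. MXD proteins, MNT and MGA pair with the same MAX protein at the same kind of site and recruit repressor complexes, so the balance of partners around MAX sets whether such a site is activated or repressed. In the mouse brain, Mycn is known for its part in expanding neural progenitors, whereas MXD proteins are best known from cells that are leaving the cell cycle.

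The sequence the network is built on is the E-box CACGTG, which reads the same on both strands. It was searched in RefSeq windows of 250 bases before to 50 bases after each gene start (build GRCm38.p6), where 9 members had an entry and Myc did not. The windows of Max, Mnt and Mxd4 held the motif, that is 3 of 9 members, beside 8.09% of 27025 genes with a window. The 3 stretches are printed because they hold the network's own site beside the starts of its members, with the motif in capitals and 12 bases on either side.
Max, chr12:76962234-76962263, minus strand: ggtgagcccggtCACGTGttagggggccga
Mnt, chr11:74830789-74830818, plus strand: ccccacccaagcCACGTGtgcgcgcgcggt
Mxd4, chr5:34187912-34187941, minus strand: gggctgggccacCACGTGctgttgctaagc
The motif began 3 bases before the RefSeq start of Max, which it therefore spans, 123 bases before that of Mnt and 219 bases before that of Mxd4. In GENCODE M21 the Max gene starts at chr12:76962201 on the minus strand, and the motif lies wholly upstream of that start. The 3 stretches are matches of letters in a window, and no binding was measured.

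Max is made as a long and a short form that differ by 1 small exon close to the DNA-contacting basic region. The exon is shown because both forms were estimated in the libraries (values below). It holds 27 bases, or 9 codons, is exon 2 of transcript Max-202 and lies at chr12:76961263-76961289 on the minus strand of GRCm38. Capitals mark the exon, with 12 bases of the neighbouring exons in lower case.
Max-202: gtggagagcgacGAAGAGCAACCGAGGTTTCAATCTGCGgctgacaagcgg
Max-201: gtggagagcgacgctgacaagcgg
The flanks join directly in Max-201, and the lengths of the transcripts in the deposited tables differ by the same 27 bases.

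Levels are in TPM, a length-scaled abundance relative to all transcripts of a library, which allows genes to be compared within it. Each deposited value comes with a credibility interval, at a level not given in the sources used here. All 10 members reached 1 TPM in both libraries, beside 58.6% of the 21474 protein-coding genes. Their means ran from 4.63 to 118 TPM, a 25.5-fold range. The median member had a log2(TPM + 1) of 4.21, beside 2.30 over all protein-coding genes and 4.43 over those that reached 1 TPM. The median member was thus close to the middle of the detected range, while Mycn and Mycl lay far above that middle and Mnt below it.

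**Figure D1:**
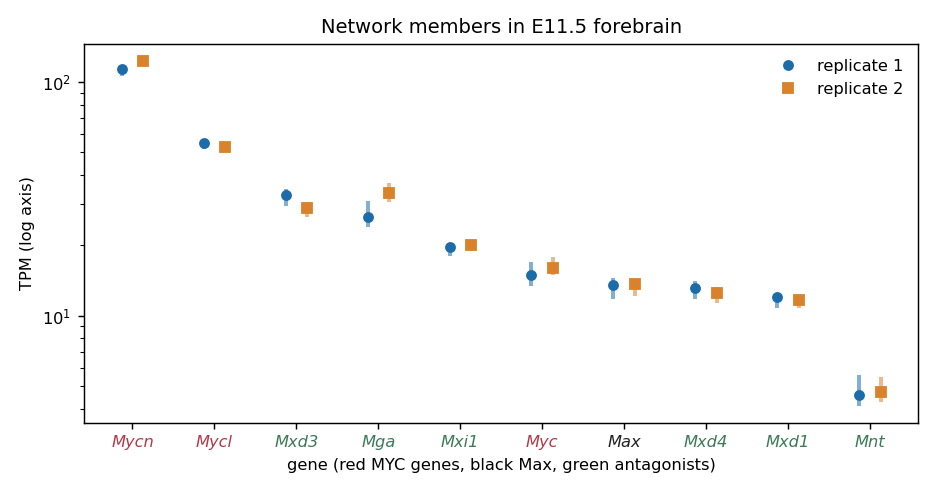
Level of the 10 members, ordered by mean, in TPM on a log axis. Circles are replicate 1, squares replicate 2, and vertical bars the deposited credibility intervals; Mycn stands highest at 118 TPM on average and Mnt lowest at 4.63 TPM.

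Among the activators, most of the RNA was that of Mycn. Mycn (ENSMUSG00000037169.10, chr12:12936093-12941914, minus strand) had 113.74 TPM in replicate 1 and 122.65 TPM in replicate 2, a mean of 118 ± 6.30 TPM (SD, n = 2). Coordinates here are those of GRCm38 (mm10) in GENCODE M21. The gene stood at percentile 93.8 and 94.4 of protein-coding genes. These values rest on 4325 and 6724 expected counts, and both TPM lie at or just above the upper bound of their intervals, 106.3 to 113.1 and 116.7 to 122.6 TPM, since the deposited bounds surround a posterior mean of 109.76 and 119.68 TPM.

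Mycl, a family member known mainly from developing brain and lung and from small-cell lung cancer, came second. It had 54.91 and 52.77 TPM in replicates 1 and 2 (ENSMUSG00000028654.9, chr4:122995652-123002485, plus strand), a mean of 53.8 ± 1.51 TPM (SD, n = 2). Myc itself, the founding member, had 14.91 and 16.01 TPM (ENSMUSG00000022346.10, chr15:61985391-61990374, plus strand), a mean of 15.5 ± 0.778 TPM (SD, n = 2). The order Mycn, Mycl, Myc was the same in both libraries and the intervals of the 3 genes did not overlap in either.

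Mycn over Myc was 7.63 in replicate 1 and 7.66 in replicate 2. Mycn over Mycl was 2.07 and 2.32, and Mycl over Myc 3.68 and 3.30. Of the summed TPM of the 3 activators, Mycn made up 62.0% and 64.1%, Mycl 29.9% and 27.6%, and Myc 8.12% and 8.36%. The Mycn share thus differed between the pools by less than its distance from either other gene.

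Max, the common partner of all of them, was among the lower members. It had 13.57 TPM in replicate 1 and 13.61 TPM in replicate 2 (ENSMUSG00000059436.8, chr12:76937269-76962201, minus strand), a mean of 13.6 ± 0.0283 TPM (SD, n = 2), on 392 and 569 counts. The agreement of the pools is closer than the intervals, 11.84 to 14.44 and 12.2 to 14.39 TPM, can resolve. Levels of RNA say nothing of how much protein was present or in which pairs.

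The antagonists were led by Mxd3 and Mga. Mxd3, the MXD gene known in mouse embryos from dividing progenitors, had 32.81 and 28.9 TPM (ENSMUSG00000021485.9, chr13:55325168-55329823, minus strand), a mean of 30.9 ± 2.77 TPM (SD, n = 2). Mga, which joins a second, T-box DNA-binding domain to its helix-loop-helix domain and serves in a Polycomb complex, had 26.46 and 33.34 TPM (ENSMUSG00000033943.11, chr2:119897228-119969581, plus strand), a mean of 29.9 ± 4.87 TPM (SD, n = 2). Mxd3 was the higher in replicate 1 and Mga in replicate 2, so these genes have no order here. The Mga level was 14.1 ± 1.42 TPM (SD, n = 2) when only its protein-coding transcripts were summed, as described with its transcripts.

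Mxi1, also called Mxd2 and best known as a MYC antagonist of differentiating cells, followed with 19.69 and 20.16 TPM (ENSMUSG00000025025.9, chr19:53310518-53375810, plus strand). Its mean was 19.9 ± 0.332 TPM (SD, n = 2). Mxd4 had 13.16 and 12.45 TPM (ENSMUSG00000037235.9, chr5:34173883-34187720, minus strand), and Mxd1, the first MXD gene described, had 11.98 and 11.73 TPM (ENSMUSG00000001156.7, chr6:86647042-86669161, minus strand). Their means were 12.8 ± 0.502 and 11.9 ± 0.177 TPM (SD, n = 2 each).

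Mnt, an antagonist described as expressed in most cell types, was the lowest member. It had 4.56 and 4.7 TPM (ENSMUSG00000000282.8, chr11:74830920-74845725, plus strand), a mean of 4.63 ± 0.0990 TPM (SD, n = 2), from 313 and 457 counts. That put it at percentile 51.2 and 51.7 of protein-coding genes, near the middle of all such genes, silent ones included.

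Neighbours in the order of levels were taken as separated where both libraries had the same order and the intervals did not overlap in either. This held for 5 of the 9 neighbouring pairs. Mycn stood above Mycl, Mycl above Mxd3 and Mga, these above Mxi1, and Mxi1 above Myc. The place of Mga turns with the transcripts that are summed. With protein-coding transcripts only, Mga had 13.06 and 15.07 TPM in replicates 1 and 2 and lay below Mxi1, which had 19.7 and 20.15 TPM. Myc, Max, Mxd4 and Mxd1 formed a run between 11.9 and 15.5 TPM in which no neighbour was separated from the next, and Mnt stood apart below them.

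Summed by role, RNA for the activators exceeded RNA for the antagonists in both libraries. The 3 activators had 183.6 TPM in replicate 1 and 191.4 TPM in replicate 2, against 108.7 and 111.3 TPM for the 6 antagonists. The ratio was 1.69 and 1.72 (mean 1.70). It depends on how reads are turned into levels. With expected counts, not scaled for length, it was 1.07, and Mga, the member with the longest transcripts, took 2881 and 4995 of those counts.

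All partners together had 21.5 and 22.2 times the TPM of Max in replicates 1 and 2. The activators alone were 13.5 and 14.1 times Max, and the antagonists 8.01 and 8.18 times. In expected counts, partners over Max came to 37.6, and in TPM of protein-coding transcripts only to 20.4. Among the antagonists, Mxd3 held 30.2% and 26.0% of the summed TPM, Mga 24.4% and 29.96%, Mxi1 18.1% in both, Mxd4 12.1% and 11.2%, Mxd1 11.0% and 10.5%, and Mnt 4.197% and 4.224%. No single antagonist had the share among its kind that Mycn had among the activators. Shares among 6 genes are smaller on average than shares among 3, so group size alone bears on this contrast.

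**Figure D2:**
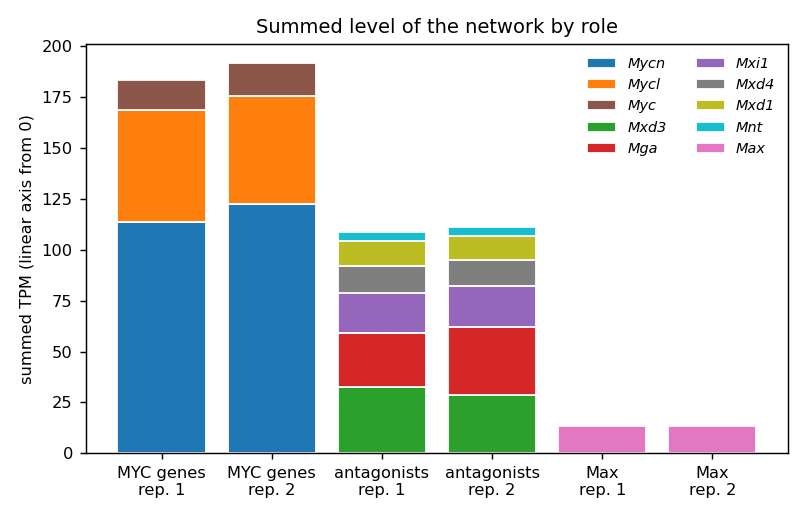
Summed TPM on a linear axis from 0 for the 3 activators, the 6 antagonists and Max, with replicate 1 left of replicate 2 and each gene a coloured segment. Mycn fills 62.0% and 64.1% of the activator bars, and the Max bars reach 13.57 and 13.61 TPM.

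The deposited transcript tables listed 45 transcripts of the members, of which 12 were at 0 in both libraries and 15 held 20% or more of their gene in either. The transcripts of Mycn differ at the 5′ end. Mycn-201, which begins with a 279-base first exon of its own, held 65.5% in replicate 1 and 56.0% in replicate 2. Mycn-202, whose first exon extends the second exon of Mycn-201 upstream by 130 bases, held 32.6% and 42.5%. Both are annotated with 1386 coding bases.

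Mycn-201 had 74.54 and 68.69 TPM and Mycn-202 37.12 and 52.17 TPM. The intervals of Mycn-202 did not overlap between the pools (26.86 to 45.03 TPM in replicate 1, 45.2 to 58.53 TPM in replicate 2), while those of Mycn-201 did. The higher Mycn total of replicate 2 was thus in Mycn-202. Within each library, Mycn-201 stayed above Mycn-202 with intervals apart.

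Mycl was steadier. Mycl-202, which splices out a 363-base intron kept in Mycl-201 and starts 155 bases farther upstream, held 59.1% and 59.2%, and Mycl-201 held 39.3% and 39.5%. Both are annotated with 1104 coding bases. The intervals of Mycl-202 lay above those of Mycl-201 in both libraries.

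The transcripts of Myc were not resolved. Myc-202, which starts 173 bases downstream of Myc-201, held 24.3% and 33.8%, with wide intervals of 0.953 to 4.62 and 1.53 to 6.63 TPM. Myc-201 and Myc-205 have identical exons and were given equal shares, 20.2% and 19.7% each. They are annotated with 1362 and 1317 coding bases, a difference in the start codon that reads cannot show.

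The short form of Max, Max-201, had 8.27 and 7.97 TPM, and the long form, Max-202, which includes the 27-base exon printed above, had 5.3 and 5.64 TPM. Their shares were 60.9% and 58.6% for the short form and 39.1% and 41.4% for the long form. The order was the same in both libraries, but the intervals overlapped in each (4.81 to 10.8 against 2.43 to 8.13 TPM in replicate 1), so the forms were not separated. Both forms were present above 0 at their lower bounds.

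Most antagonists were carried by 1 protein-coding transcript. Mxd1 has only 1 annotated transcript there, so its share of 100% in both libraries was fixed. The leading transcript held 100% and 97.5% of Mnt (Mnt-201), 94.4% and 95.9% of Mxd3, and 93.7% and 95.1% of Mxd4. By the posterior mean, Mnt-201 held 91.25% and 91.74%. Mxi1 has transcript starts that lie 18940 bases apart. Its form with the longer coding region, 885 bases, held 87.5% and 92.1%, and the form with 576 coding bases held 12.5% and 7.89%. Starts and coding lengths are those of GENCODE M21, whereas the shares were estimated on M4 models, and the longer form measures 5156 bases in the deposited tables against 2627 in M21.

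**Figure D3:**
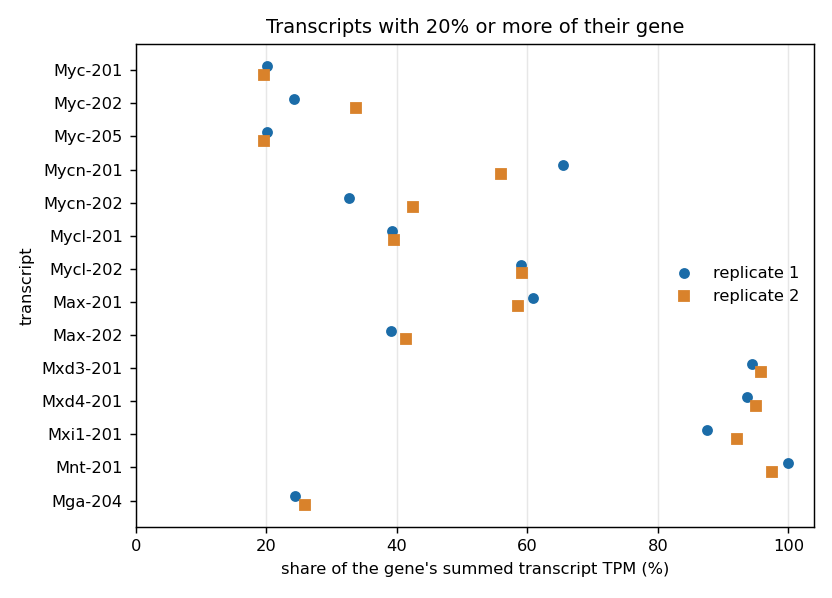
Share of each gene's summed transcript TPM, in percent, for the transcripts of 20% or more in either library, apart from Mxd1 with its sole transcript; circles are replicate 1 and squares replicate 2. Mycl and Max keep their shares between the pools, while Mycn-201 holds 65.5% in replicate 1 and 56.0% in replicate 2.

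Mga was the exception. Transcripts without a coding annotation held 13.4 of its TPM in replicate 1 and 18.28 in replicate 2, or 50.6% and 54.8%. In the other members this share was at most 5.61% in either library. Retained-intron fragments alone had 4.64 and 9.2 TPM and processed transcripts 8.76 and 9.08 TPM, against 13.06 and 15.07 TPM for the coding transcripts, which include the 13931-base Mga-204 (24.5% and 25.9% of the gene). By expected counts the picture is the other way round, with 90.5% and 87.6% of Mga reads on coding transcripts. The fragments are short, so few reads give them a high TPM. With coding transcripts alone, Mga drops to rank 6 among the members, between Myc and Max.

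The pools differed little. Ratios of replicate 1 over replicate 2 were formed from rounded expected counts scaled with the TMM method, and all 10 members had more than 100 counts summed. Not 1 of the 10 passed 1.5-fold in either direction, beside 13.6% of the 18297 genes with 10 or more counts and 2.79% of the 13510 genes with 100 or more. The members' log2 ratios ran from -0.26 to 0.19 with a median of -0.0078, and the median over all genes was 0.0002. A low count of members past 1.5-fold is therefore near what genes of this depth show in general.

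For 6 of the 10 the log2 ratio was within the SD of all genes in the same range of counts. The share of all genes within that SD was not counted, so nothing about the members is read from the 6. Outside it were Mga at -0.26, Mxd3 at 0.19 and Myc at -0.17, where the SD of genes with 1000 to 10000 counts was 0.144. Also outside was Mycn at -0.10, on the edge of the SD of 0.102 for genes with 10000 or more. By these ratios Mga, Myc and Mycn were higher in replicate 2 and Mxd3 in replicate 1. Between the pools, the deposited intervals overlapped for Mga (24.08 to 31.0 and 30.61 to 36.84 TPM) and Myc (13.41 to 16.97 and 14.95 to 17.89 TPM). They also overlapped for Mxd3 (29.47 to 34.68 and 26.53 to 30.75 TPM), while those of Mycn were apart. Myc and Mxd3, with 1160 and 1424 counts summed, lay near the low end of their range of counts. The other 6 members had ratios between -0.034 and 0.0669.

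Where the higher Mga value of replicate 2 sat depends on the scale. In TPM, the retained-intron transcripts were 4.56 higher there and the coding ones 2.01 higher. In counts, which the ratio of -0.26 is formed from, the coding transcripts had 2607 in replicate 1, which is 3773 at the depth of replicate 2, against 4374 in replicate 2. The retained-intron transcripts had 133.8, or 193.6 at that depth, against 432.4. Coding transcripts thus made up 72.9% of the count difference and retained-intron transcripts 28.9%, with processed transcripts at -1.80%. Genes with a length of 6000 bases or more in the deposited tables also leaned towards replicate 2, with a median log2 ratio of -0.0466 over 903 such genes and 12.8% of them at or below the ratio of Mga. The part of transcript length or intron-containing RNA in the Mga difference was not tested.

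**Figure D4:**
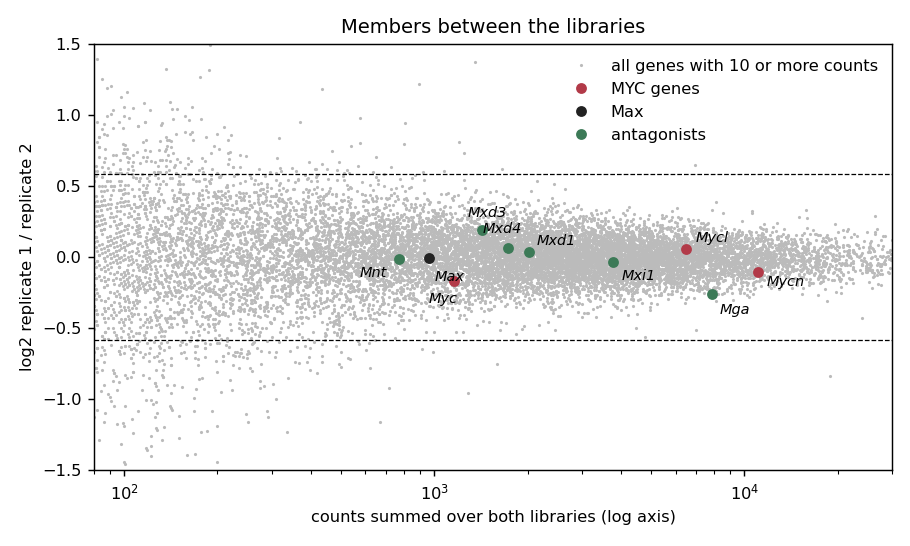
Log2 ratio of replicate 1 over replicate 2 against the counts summed over both libraries (log axis), with all genes in grey, members in colour and dashed lines at 1.5-fold either way. All 10 members lie between the dashed lines, with Mga lowest at -0.26 and Mxd3 highest at 0.19.

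Some reads of members could belong to genes on the opposite strand, because the handling of strand is not given in the sources used here. Mxd3 shares 105 exonic bases with Prelid1, a far more abundant gene of 432.98 and 402.11 TPM, and its counts were not whole. Mxi1 shares 194 bases with Gm10197 (18.84 and 15.91 TPM), and its counts were not whole either. Mxd4 shares 514 bases with the antisense gene Gm42846, which was not analysed here. The other 7 members had no such overlap in GENCODE M21, and 8 of the 10 had whole counts, within 0.005, in both libraries. For Mxd4, whole counts could not show shared reads, because Gm42846 had no entry among the quantified genes.

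The factors that act with the network were all present. In 6 lists of 72 genes, all 72 reached 1 TPM in both libraries beside 58.6% of protein-coding genes. All 72 had more than 100 counts summed, the lowest being Mlxipl with 206, and 0 passed 1.5-fold between the pools, beside 2.79% of all genes of 100 or more counts. Of these genes, 68 stood above Max and 26 above Mycn in mean TPM. Among all protein-coding genes, Max stood at percentile 64.06 and 64.14 in replicates 1 and 2, and Mycn at 93.76 and 94.35. The lists were picked from textbook roles, and broad housekeeping factors make up much of them.

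The parallel branch, in which MLX takes the place of MAX and pairs with the glucose-responsive factors MLXIP (MondoA) and MLXIPL (ChREBP), was represented by 34.35 and 33.0 TPM for Mlx, 17.22 and 17.53 TPM for Mlxip and 2.46 and 1.92 TPM for Mlxipl. Mlx was thus higher than Max, and Mlxipl lower than any network member.

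Co-activators reported to bind MYC had a median of 66.8 TPM over 14 genes, from 16.7 to 220 TPM. The highest were Actl6a, a BAF and TIP60 complex subunit, at 220 ± 3.10 TPM, and the ATPases Ruvbl1 at 135 ± 4.96 TPM and Ruvbl2 at 126 ± 8.35 TPM (SD, n = 2 each). The SIN3 and histone deacetylase corepressor, which MXD proteins and MNT recruit, had a median of 169 TPM over 9 genes, from 26.7 to 417 TPM. It was led by the histone-binding Rbbp4 at 417 ± 25.9 TPM and Rbbp7 at 287 ± 0.559 TPM and the deacetylases Hdac2 at 321 ± 3.17 TPM and Hdac1 at 215 ± 11.1 TPM. Both medians were above the 17.7 TPM of the median network member. The co-activator median was nearer to that of the 3 activators, 53.8 TPM, and below Mycn at 118 TPM. The corepressor median was above that of the 6 antagonists, 16.4 TPM.

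Partners of MGA in its Polycomb complex had a median of 74.4 TPM over 11 genes, from 6.26 to 540 TPM. The heterochromatin protein gene Cbx3 reached 540 ± 49.4 TPM, the E2F partner Tfdp1 189 ± 3.21 TPM, the ubiquitin ligase Rnf2 (RING1B) 106 ± 5.49 TPM and the histone methyltransferase Ehmt1 90.8 ± 4.89 TPM (SD, n = 2 each). Genes that control the stability of MYC proteins had a median of 57.4 TPM over 13 genes, from 13.3 to 194 TPM. Stub1, a chaperone-linked ubiquitin ligase, had 194 ± 12.6 TPM, the mitotic kinases Plk1 152 ± 3.10 TPM and Aurka 152 ± 0.608 TPM, both known from human tumour cells to stabilise MYCN protein, and the ligase subunit Skp2 116 ± 6.46 TPM. Aurka and Plk1 also mark dividing cells in general.

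Textbook MYC target genes had a median of 166 TPM over 22 genes, from 25.6 to 2338 TPM. The cell-cycle kinase Cdk4 led with 2338 ± 43.9 TPM, followed by the glycolytic enzyme Ldha with 1633 ± 56.5 TPM, the nucleolar protein gene Npm1 with 854 ± 21.5 TPM and the mitochondrial chaperone gene Hspd1 with 321 ± 8.52 TPM (SD, n = 2 each). With a single tissue and age, these levels cannot be set against a state with less MYC.

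The E-box was counted in all 6 lists, over the genes with a RefSeq window, beside 8.09% of all genes. It was in 5 of 18 target genes (Cdk4, Eif4e, Hspd1, Ldha and Nme1), 2 of 3 genes of the MLX branch (Mlx and Mlxipl), 2 of 9 MGA partners, 1 of 13 co-activators, 1 of 8 corepressor genes and 1 of 12 turnover genes. These counts are small and nothing is read from their order.

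**Figure D5:**
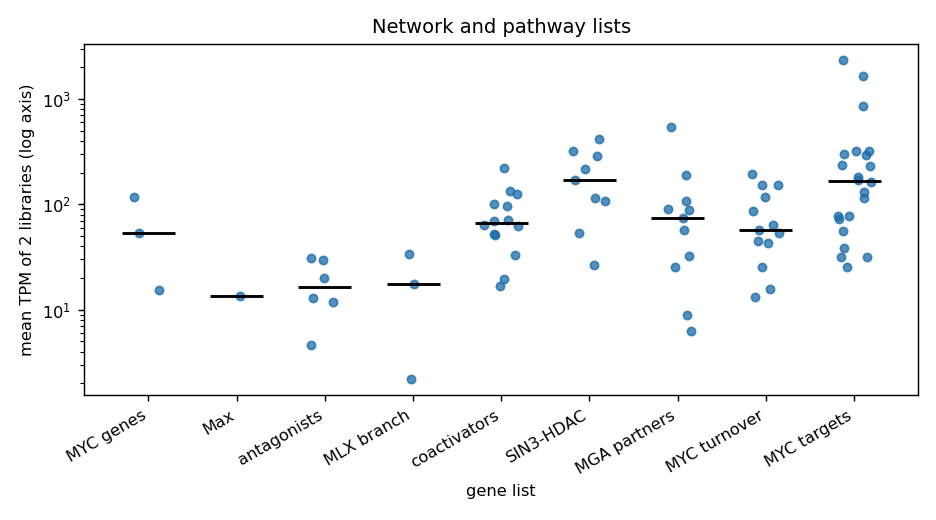
Mean TPM of the 2 libraries on a log axis for each gene of the network (left 3 columns) and of 6 pathway lists, with a bar at each median. Target genes reach 2338 TPM, the corepressor and target lists have close medians of 169 and 166 TPM, and Max lies at 13.6 TPM.

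Genes that neighbour a MYC gene or are named for binding MYC were also measured. Mycbp had 46.0 ± 0.615 TPM and the ubiquitin ligase gene Mycbp2 22.8 ± 0.431 TPM (SD, n = 2 each). The long non-coding RNA Pvt1, which begins 47612 bases beyond the end of Myc on chromosome 15, had 1.17 TPM in replicate 1 and 2.64 TPM in replicate 2. Its log2 ratio was -0.89 on only 33.79 and 91.75 counts, the replicate 1 level lay below its own interval, and the deposited intervals overlapped (1.34 to 3.02 and 2.32 to 3.72 TPM). Mycbpap had 1.49 and 3.78 TPM, with a log2 ratio of -0.67. Pvt1 and Mycbpap, 2 of the 4 measured genes, passed 1.5-fold, beside 2.79% of all genes of 100 or more counts. With 126 and 239 counts summed they lie at the low end of a range, 100 to 1000 counts, where the SD of the log2 ratio over all genes was 0.438. Mycnos and Ccat1 were not analysed here.

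The label of the tissue was checked against markers. All 6 forebrain markers, such as Lhx2, reached 1 TPM (13.7 to 147 TPM), and none of 6 hindbrain, midbrain and trunk markers did (at most 0.035 TPM). Progenitor markers (44.3 to 1013 TPM) and neuron markers (33.7 to 473 TPM) were both present, as were all 6 erythroid markers, with a summed level of 12780 and 13840 TPM, all 6 mesenchymal markers (674 and 683 TPM), all 6 endothelial markers (91.7 and 92.5 TPM), all 6 macrophage markers (52.1 and 49.3 TPM) and 5 of 6 epithelial markers (44.8 and 45.1 TPM). Which cells carried the network's RNA was not tested, and in bulk tissue fewer cells of a type and less RNA per cell cannot be told apart. The libraries held 23165260 and 33597028 expected counts on genes.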

How the data were processed

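The build was mm10 with GENCODE M4 transcripts, per the notes deposited with each sample. The aligner, the quantifier and the strand setting were not given in the sources used here. Expected counts, TPM and FPKM per gene and transcript were deposited by the authors and are estimates that divide shared reads between transcripts. The deposited tables also give credibility bounds, read here as a signal in TPM, and the percent of a gene held by each transcript. TPM cover all entries, spike-ins included (13.0% and 12.7% of TPM), which lowers every mouse gene's level alike.

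Names came from GENCODE M21 (GRCm38) and matched 42462 of 43346 identifiers. Spike-ins (5.66% and 5.49% of counts) and 26248 numeric entries stayed out of library sizes. Expected counts were rounded, scaled with TMM in edgeR 4.0.16 (R 4.3.3) and compared as log2 ratios with a prior of 0.5 counts. DESeq2 1.42.0 size factors were an alternative. These ratios carry no p-value, because 1 library a side leaves no residual degrees of freedom. The step was checked on counts simulated with no spread between the pools beyond sampling. That check does not cover the spread of real pools.

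The members and lists were chosen with earlier results of these data known. Genes named are all members, the 4 highest of each list and any list member under 1 TPM, and transcripts of 20% or more of their gene; other transcripts, Lhx2 and the genes with an E-box were named after their values were seen. Not every gene taken by this rule is reported here. No search for genes of like pattern was made, since 2 libraries of 1 group define no pattern. The pools are separate collections, and SDs cover these 2 pools only.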

Additional observations from a re-analysis of the deposited data

How the results depend on the processing

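The ratio of activators to antagonists, 1.70 in TPM, was 1.68 with the posterior mean, 1.07 with expected counts and 2.00 with protein-coding transcripts only, an alternative chosen after the transcript tables were read. All partners over Max, 21.9, became 37.6 with expected counts and 20.4 with coding transcripts only. Mycn over Myc, 7.64, became 7.29, 9.58 and 7.52 under the same 3 alternatives. Counts are not scaled for length. The 10 members stayed at or above 1 TPM, and 0 passed 1.5-fold, under each alternative run for those counts. The order of Mga and Mxi1 turned, with a mean log2 ratio of Mga over Mxi1 of 0.58 in TPM and -0.51 with coding transcripts only; separated pairs were not counted for that sum. Dividing by spike-in totals shifted the log2 ratios by -0.043 and turned the sign of Mxd1, which lies near 0. The posterior mean moved levels by -3.04% to 4.32%, and rescaling without spike-ins raised them by 14.7% to 14.8%. Mga ranked above Mxd3 with the posterior mean and without replicate 1. No paired analysis was possible because there was 1 group. The precision of low members is limited by depth, with 313 counts at the least, and with 2 pools an SD is itself uncertain.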
